A study of Homo sapiens with 15 samples.

Results

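The tripartite motif (TRIM) genes described here were the protein-coding genes with a symbol of TRIM followed by digits and a mean of at least 1 CPM over the 15 libraries, where CPM is a gene's count scaled to the total of its library. Of 66 such protein-coding genes, 39 met this minimum, out of 60286 genes in the table. The other 27 were below it, and 11 of these had no count in any library. The members were thus selected on their mean level in these same libraries, and that level is given as a description.

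THP-1 is a human monocytic leukemia cell line, and the cells were wild-type. Cells of the 5 groups, with 3 libraries each, received PBS (the non-stimulated control, labelled NC) or bacterial extracellular vesicles (BEVs), the membrane particles that bacteria shed. *E. coli* BEVs were given at 1 μg/mL, isolated by ultracentrifugation (UC, group EUC) or with ε-poly-L-lysine (PL, group EPL). *S. aureus* BEVs were given at 10 μg/mL, isolated in the same ways (groups SUC and SPL). Species and dose therefore changed together and cannot be told apart. The incubation was 6 h by the methods of the study, and the labels give Day 0. All groups share 1 cell line, and the methods name triplicates and treated wells without saying whether the wells of a group were seeded separately, so p-values measure the spread between these libraries only.

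TRIM proteins carry a RING finger, B-box domains and a coiled coil, followed by a C-terminal domain that differs between subfamilies. The RING finger brings a ubiquitin-loaded E2 enzyme to a target protein, which makes most of the family E3 ubiquitin ligases. In monocytes and macrophages several members are known as interferon-stimulated genes that restrict viruses or tune the sensors of foreign nucleic acid. TRIM14, TRIM16, TRIM44 and TRIM66 lack a RING finger, so the family name covers more than the E3 ligases.

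The libraries held 14399421 to 16637345 counted reads. The 10 monocyte marker genes were detected in every library, with a summed level of 1530 to 1560 CPM in PBS cells and 1940 to 2460 CPM in BEV-stimulated cells, and CD14 was low (3.20 to 9.90 CPM). They did not move together. The sum followed SPI1, at a mean of 470.6 CPM in PBS and 960 to 1198 CPM in the stimulated groups, and in each comparison 3 of the 10 were higher (SPI1, CD14 and CSF1R) and 4 lower, with MPO, CD33 and CSF3R lower in all 4 comparisons. The median log2 fold change of the 10 was -0.06 to -0.27. Of 12 marker genes of other cell types, CD3D and HBB were at 0 in all 15 libraries. The summed level of the 12 was 320 to 328 CPM in PBS cells and 229 to 309 CPM in stimulated cells, of which PECAM1, also made by monocytes, took 208 to 308 CPM. The part of these shifts in the results was not tested. Within their groups EUC3, EPL1 and SUC3 stood apart. Their counts differed from those of the other replicates by a chi-square per degree of freedom of 15.5 to 46.2, against 2.20 to 7.13 for the remaining pairs, and their TMM factors (0.915 to 0.962) were the lowest of all libraries. Members that were lowest of their group in all 3 of these libraries numbered 9, among them TRIM25, TRIM33, TRIM44, TRIM46 and TRIM66, and 5 were highest there (TRIM28, TRIM21, TRIM11, TRIM59 and TRIM16). The median length of merged exons was 9.60 kb for the first set and 5.64 kb for the second, the latter equal to that of all 39 members. Results that change without these libraries are given with and without them.

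To compare levels between genes, CPM was divided by the kilobases of merged exons. On this scale TRIM28, the corepressor that KRAB zinc finger proteins bring to chromatin, ranked first of the 39 members in every group. Its group means lay between 157 and 177 CPM per kb. In PBS cells TRIM14 (34.8 CPM per kb), TRIM65 (27.9) and TRIM21 (25.6) came next, and TRIM9 was lowest (0.186). The order changed for a few members. TRIM22 ranked 34 in PBS cells at 0.662 CPM per kb, and 7, 7, 10 and 9 in EUC, EPL, SUC and SPL cells at 13.1, 13.3, 9.18 and 10.7 CPM per kb. TRIM36 moved from rank 24 to ranks 10 to 11 and TRIM5 from rank 29 to ranks 14 to 18. TRIM58 moved the other way, from rank 16 to ranks 28 to 33. TRIM21 took the second rank in each stimulated group at 51.3 to 65.1 CPM per kb.

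**Figure D1:**
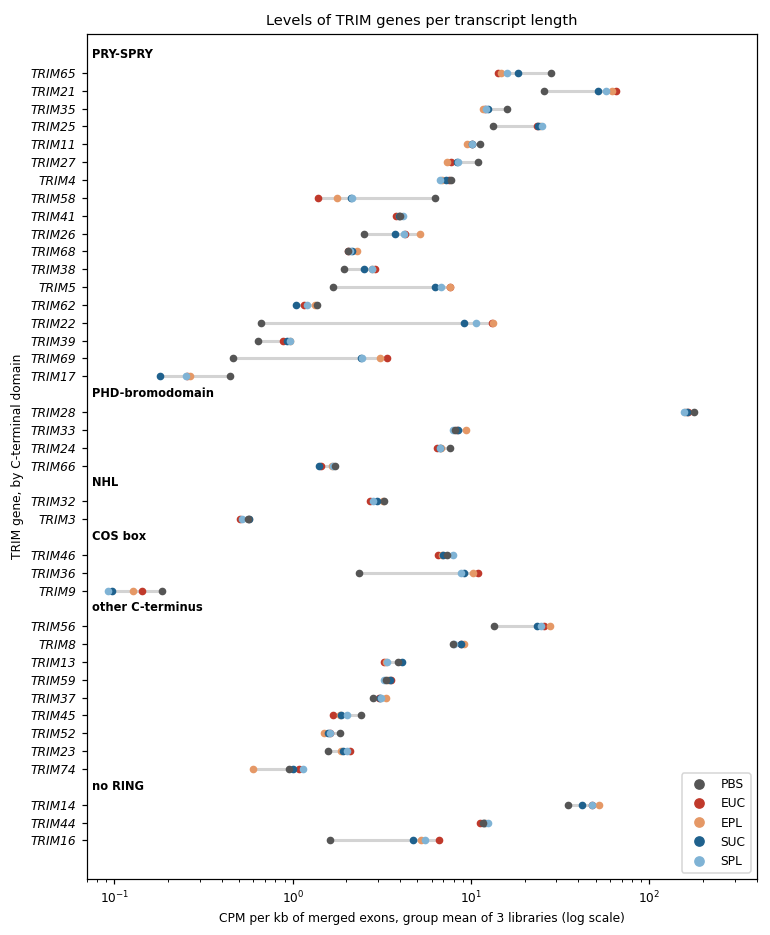
Level of the 39 TRIM genes in CPM per kb of merged exons (horizontal, log scale), each point the mean of 3 libraries of 1 group, with genes sorted by C-terminal domain and by their level in PBS cells. The grey bar spans the 5 group means. TRIM28 stands far to the right, and the long bars of TRIM22, TRIM69, TRIM5, TRIM36, TRIM16 and TRIM58 mark the genes whose PBS point lies away from the other 4.

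Summed over the 39 members, normalised counts were 2429 ± 41.2 CPM in PBS cells (SD, n = 3). They were 2941 ± 110 CPM in EUC and 2978 ± 58.4 in EPL cells, and 2802 ± 99.1 in SUC and 2875 ± 53.9 in SPL cells. Without TRIM28 the means were 1666, 2230, 2296, 2101 and 2197 CPM. The lowest stimulated library (2724 CPM) lay above the highest PBS library (2462 CPM). In bulk RNA a change in the number of expressing cells and a change in RNA per cell cannot be told apart, here and in the results that follow.

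Each BEV group was then compared with PBS across 17198 genes, all 39 members included, to see which TRIM genes responded to the vesicles. Genes with an adjusted p up to 0.01 passed the test, and a gene was a differentially expressed gene (DEG) if its log2 fold change was also at least 1 in size. In EUC cells 11 members were higher and 5 lower, where 16.5% and 14% of all tested genes were. In EPL cells 11 were higher and 4 lower, against 16% and 13.2%. In SUC cells 9 were higher and 4 lower, against 12.4% and 9.15%. In SPL cells 11 were higher and 4 lower, against 13.3% and 10.6%. As shares of the 39 members the higher ones were 28.2% in EUC, EPL and SPL and 23.1% in SUC, above the share of all genes in each comparison, while the lower ones were 12.8% in EUC and 10.3% elsewhere, near it. Left out together, EUC3, EPL1 and SUC3 moved the higher counts to 11, 12, 11 and 11 and the lower counts to 4, 7, 5 and 5. Median log2 fold changes of the members were -0.04, 0.01, 0.06 and 0.02 in EUC, EPL, SUC and SPL cells, and those of all genes lay between -0.01 and 0.01.

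Higher DEGs numbered 8 in EPL cells, or 20.5% of the members, and 6 in each of the other groups, or 15.4%. The 8 in EPL cells became 6 without EPL2 and with column totals as library sizes. Among all tested genes the higher DEGs were 9.43% in EUC and 9.38% in EPL cells, and 6.82% in SUC and 7.76% in SPL cells. The lower DEG was TRIM58 in each comparison, or 2.56% of the members, where 5.75%, 5.15%, 3.06% and 3.70% of all genes were lower DEGs. Without EUC3, EPL1 and SUC3, TRIM56 also became a higher DEG in EUC cells, TRIM65 became a lower DEG in EUC and EPL cells, and TRIM21 missed the fold limit in SUC cells. The counts were then 7, 8, 5 and 6 higher and 2, 2, 1 and 1 lower DEGs in the order EUC, EPL, SUC and SPL. The 4 comparisons share the PBS libraries. In all 4 of them, 9 members were higher, against 10.9% of all tested genes, and 4 were lower, against 7.67%. Another 23 members passed in none, against 65% of all genes. The heat map of the single libraries shows the 9 higher members as a block at its top. At its bottom the 4 lower members are not a single block, since TRIM9 and TRIM17, which passed in no comparison, stand among them.

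**Figure D2:**
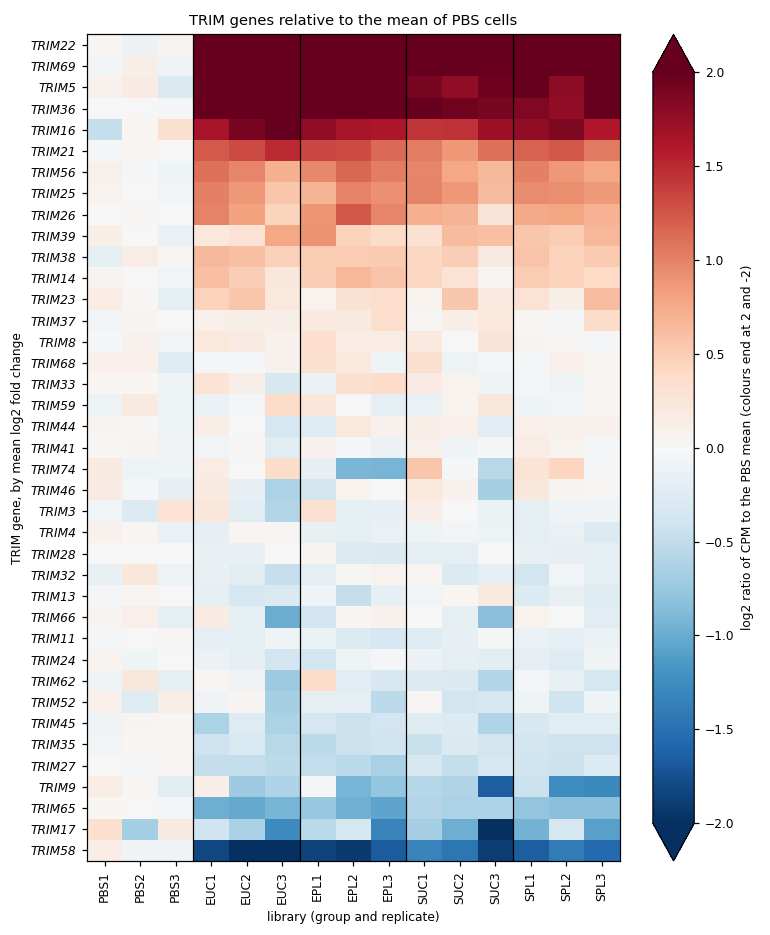
The log2 ratio of each library's CPM to the mean of the 3 PBS libraries, with 0.1 CPM added to both, for 39 TRIM genes (rows, ordered by mean fold change) in 15 libraries (columns). Red is higher and blue lower than PBS, and colours end at 2 and -2. The top rows from TRIM22 to TRIM26 are red in all 12 stimulated libraries, TRIM58 at the bottom is blue in all of them, and EUC3, EPL1 and SUC3 differ from their group in several rows.

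TRIM22, an interferon-inducible antiviral protein with a C-terminal PRY-SPRY domain, had the largest change of any member. The gene lies at chr11:5689610-5737089 on the plus strand (hg38). Its level was 8.51, 7.65 and 8.76 CPM in PBS cells, 153, 168 and 171 in EUC, 168, 168 and 164 in EPL, 131, 106 and 109 in SUC, and 132.5, 134 and 138 in SPL cells. Every stimulated library was far above every PBS library. The rises were 19.7-fold and 20.1-fold with *E. coli* BEVs (EUC and EPL) and 13.9-fold and 16.2-fold with *S. aureus* BEVs (SUC and SPL), with log2 fold changes of 4.30 ± 0.10, 4.33 ± 0.10, 3.79 ± 0.10 and 4.02 ± 0.10 (SE) and adjusted p between 5.09e-15 and 3.14e-14. TRIM22 lies within the span of TRIM5 on the opposite strand, but their exons do not overlap in GENCODE release 44. Of its 100-base transcript stretches, 4.79% also occur in another gene, mostly OR56B1.

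TRIM5, which binds the capsid of incoming retroviruses, is read from the minus strand of the same region (chr11:5663195-5938619). PBS libraries held 9.66, 10.1 and 7.39 CPM. The EUC libraries held 37.9, 39.2 and 44.6, the EPL libraries 40.2, 41.7 and 40.7, the SUC libraries 33.9, 31.1 and 35.3, and the SPL libraries 39.9, 31.4 and 38.1 CPM. All stimulated libraries were thus at least 31.1 CPM and none overlapped with PBS. The log2 fold changes were 2.16, 2.17, 1.88 and 2.01 in EUC, EPL, SUC and SPL, each with an SE of 0.125 (adjusted p at most 2.52e-09).

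TRIM69, a RING and PRY-SPRY protein that binds microtubules and limits vesicular stomatitis virus, was among the lowest members in PBS cells. It stood at 4.10, 4.65 and 4.05 CPM in PBS, 25.8, 31.3 and 36.6 in EUC, 29.5, 28.1 and 28.1 in EPL, 22.8, 21.6 and 22.6 in SUC, and 21.7, 24.5 and 22.1 in SPL cells. No stimulated library came near the PBS range, and every *E. coli* library was above every *S. aureus* library. The rise was 7.30-fold and 6.68-fold in EUC and EPL cells and 5.23-fold and 5.33-fold in SUC and SPL cells, with SEs of 0.129 to 0.130 on the log2 scale and adjusted p of at most 1.87e-10. The gene lies at chr15:44728988-44767829.

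TRIM21, the cytosolic receptor for antibodies bound to viruses and bacteria, was already abundant without BEVs. Its libraries held 48.6, 50.6 and 49.2 CPM in PBS, 116, 122.5 and 139 in EUC, 126, 123 and 109 in EPL, 101, 90.7 and 106 in SUC, and 112, 117 and 102 in SPL cells. The rise was close to the fold limit for a DEG in SUC cells (log2 1.00 ± 0.09) and larger in EUC cells (1.35 ± 0.09), with adjusted p between 2.78e-09 and 1.94e-07. EUC3, the highest library, is also one of those that stood apart.

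TRIM36 and TRIM16, like TRIM69, are not on the list of antiviral and innate members used below, which is not complete. TRIM36 carries a COS box, which binds microtubules, and lies at chr5:115124762-115180546. It was at 14.2, 14.3 and 14.0 CPM in PBS, 61.7, 69.1 and 69.4 in EUC, 61.9, 62.1 and 62.4 in EPL, 57.3, 54.4 and 53.3 in SUC, and 51.6, 48.5 and 59.1 in SPL cells. The replicates were tight and the log2 fold changes were 2.24, 2.13, 1.96 and 1.90 with an SE of 0.090 (adjusted p at most 2.32e-11). The other members with a COS box, TRIM46 and TRIM9, did not pass in any comparison.

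TRIM16 lacks a RING finger and takes part in the clearance of damaged lysosomes. It was at 6.53, 9.41 and 11.5 CPM in PBS, 28.8, 34.3 and 48.1 in EUC, 31.7, 28.8 and 28.3 in EPL, 24.8, 25.1 and 30.3 in SUC, and 31.6, 33.6 and 28.1 in SPL cells. All stimulated libraries were above the PBS libraries, and the spread in EUC cells came from EUC3. Log2 fold changes were 2.01, 1.69, 1.54 and 1.76, with SEs near 0.191 and adjusted p of at most 7.03e-06. Its counts are uncertain, since 27.5% of its 100-base stretches occur in other genes, most of them in ENSG00000251537, which is annotated over the same exons. Its relative TRIM16L also rose, with a mean log2 fold change of 2.44. Sequence shared between TRIM16 and TRIM16L was not counted separately, so their rises may not be independent.

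A further 3 members (TRIM56, TRIM25 and TRIM26) rose in all 4 comparisons by less. TRIM56, which promotes signalling through STING and TLR3, was at 160, 147 and 141 CPM in PBS cells. It was at 319, 294 and 243 in EUC, 289, 331 and 301 in EPL, 292, 256 and 233 in SUC, and 300.0, 271 and 254.5 CPM in SPL cells. The lowest stimulated library was thus well above PBS, and the log2 fold change was 1.05 ± 0.11 in EPL cells, past the DEG limit, and 0.81 to 0.94 in the others. The EPL value fell short of that limit without EPL2 (0.99) and with column totals as library sizes (0.92), and EPL did not differ from EUC by the test (0.11, adjusted p = 0.947). TRIM25, which attaches ubiquitin to the RNA sensor RIG-I, was at 172.5, 163 and 159 CPM in PBS, 330, 302 and 243 in EUC, 263, 329 and 310 in EPL, 327, 301 and 254 in SUC, and 316, 312 and 299 in SPL cells. Its log2 fold changes lay between 0.83 and 0.91 (SE 0.116), and its lowest stimulated values came from EUC3, SUC3 and EPL1. TRIM26, which acts on IRF3 and NEMO, was at 10.9, 11.1 and 10.9 CPM in PBS, 21.9, 19.2 and 14.9 in EUC, 20.1, 25.9 and 21.7 in EPL, 18.2, 17.6 and 13.1 in SUC, and 18.5, 18.9 and 17.7 in SPL cells. It passed the DEG limit in EPL cells (1.05 ± 0.15), though not without EPL2 (0.93) or with column totals (0.92), and EPL against EUC gave 0.28 (adjusted p = 0.947). In SUC cells its log2 fold change of 0.58 (adjusted p = 0.00671) no longer passed when any of PBS1, PBS2, PBS3, SUC1 or SUC2 was left out (adjusted p 0.0203 to 0.0314) or with column totals as library sizes (0.0438).

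**Figure D3:**
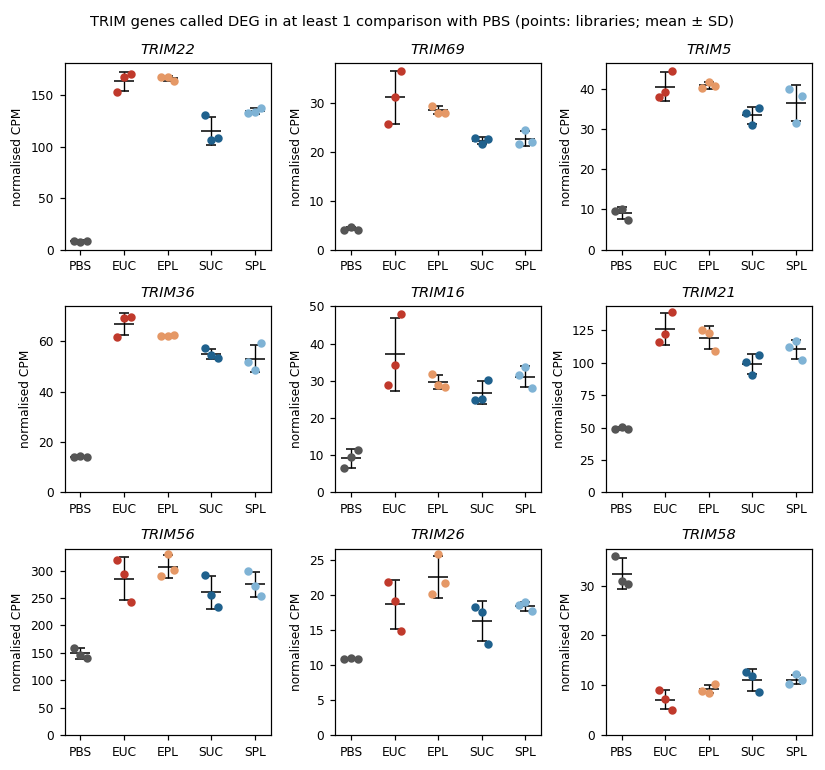
Normalised CPM of the 9 TRIM genes that were DEGs in at least 1 comparison with PBS (vertical axes from 0, 1 panel a gene), with a point for each library and the mean ± SD of 3 libraries for each group. In 8 panels all stimulated points lie above the PBS points, and in the TRIM58 panel all lie below.

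TRIM14 and TRIM38 rose in 3 comparisons and missed in SUC. TRIM14, an adaptor of the mitochondrial antiviral protein MAVS, was at 199, 191 and 183 CPM in PBS and between 197 and 303 CPM in the stimulated libraries, with SUC3 (197 CPM) inside the PBS range. Its log2 fold changes were 0.45, 0.58 and 0.46 in EUC, EPL and SPL (adjusted p 0.000215 to 0.00225) and 0.26 in SUC (adjusted p = 0.0714), which became 0.36 (adjusted p = 5.22e-05) without EUC3, EPL1 and SUC3. Without PBS3 the calls in EUC and SPL were lost (adjusted p = 0.0123 and 0.0146), as with column totals as library sizes (0.0577 and 0.0355). TRIM38, a brake on Toll-like receptor signalling, was at 16.2 to 20.2 CPM in PBS and 20.7 to 28.7 CPM in stimulated cells. Its value in SUC cells, 0.37, was just outside the limit (adjusted p = 0.0114) and passed when PBS2, EUC1, EUC3 or SUC3 was left out (0.0035 to 0.00973), with DESeq2 (0.006) and without EUC3, EPL1 and SUC3 together (0.000383). With column totals its calls in EPL and SPL were lost (0.0101 and 0.0102).

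The 4 members that fell in all comparisons each carry a PRY-SPRY domain. TRIM58, which is known from maturing red cells, where it marks dynein for degradation, fell most. It was at 35.9, 30.9 and 30.4 CPM in PBS, 9.11, 7.18 and 5.13 in EUC, 8.92, 8.54 and 10.2 in EPL, 12.7, 11.8 and 8.58 in SUC, and 10.3, 12.2 and 11.0 in SPL cells. The highest stimulated library held 12.7 CPM and the lowest PBS library 30.4 CPM. Its level was 4.53-fold and 3.51-fold lower in EUC and EPL cells and 2.93-fold and 2.91-fold lower in SUC and SPL cells (log2 SE 0.167 to 0.174, adjusted p 1.9e-08 to 1.29e-06). The gene lies at chr1:247857187-247880138.

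TRIM65, the ligase of the RNA sensor MDA5, was at 112, 109 and 106 CPM in PBS cells. Its stimulated libraries held 55.2, 53.8 and 57.5 in EUC, 64.3, 55.6 and 52.1 in EPL, 72.4, 70.6 and 70.9 in SUC, and 63.4, 61.1 and 61.1 CPM in SPL cells. The log2 fold changes were -0.98, -0.93, -0.61 and -0.82, with SEs of 0.079 to 0.080 and adjusted p of at most 1.05e-05, short of the fold limit for a DEG. It became a second lower DEG in EUC cells without EUC3 and in EPL cells without EPL1. TRIM27, found in PML bodies and known to restrain interferon signalling, fell by 0.36 to 0.56 on the log2 scale (84.6 to 88.7 CPM in PBS, 55.2 to 71.7 CPM with BEVs). TRIM35, which acts on IRF7, fell by 0.37 to 0.45 (65.1 to 69.4 CPM in PBS, 46.2 to 55.6 CPM with BEVs). The call of TRIM35 in SUC cells was lost without PBS2 or SUC1 (adjusted p = 0.0126 and 0.0135) and without a filter on low counts (0.0173), as were those of TRIM27 in SUC and SPL without the filter (0.0107 and 0.0122). TRIM45, a repressor of MAP kinase signalling, passed in EUC cells only (log2 -0.50, adjusted p = 0.00599), and lost that call without any of PBS1, PBS2, PBS3, EUC1 or EUC3 (0.0112 to 0.0274), without the filter (0.0208), with only EUC and PBS in the fit (0.0255) and without EUC3, EPL1 and SUC3 together (0.0117).

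**Figure D4:**
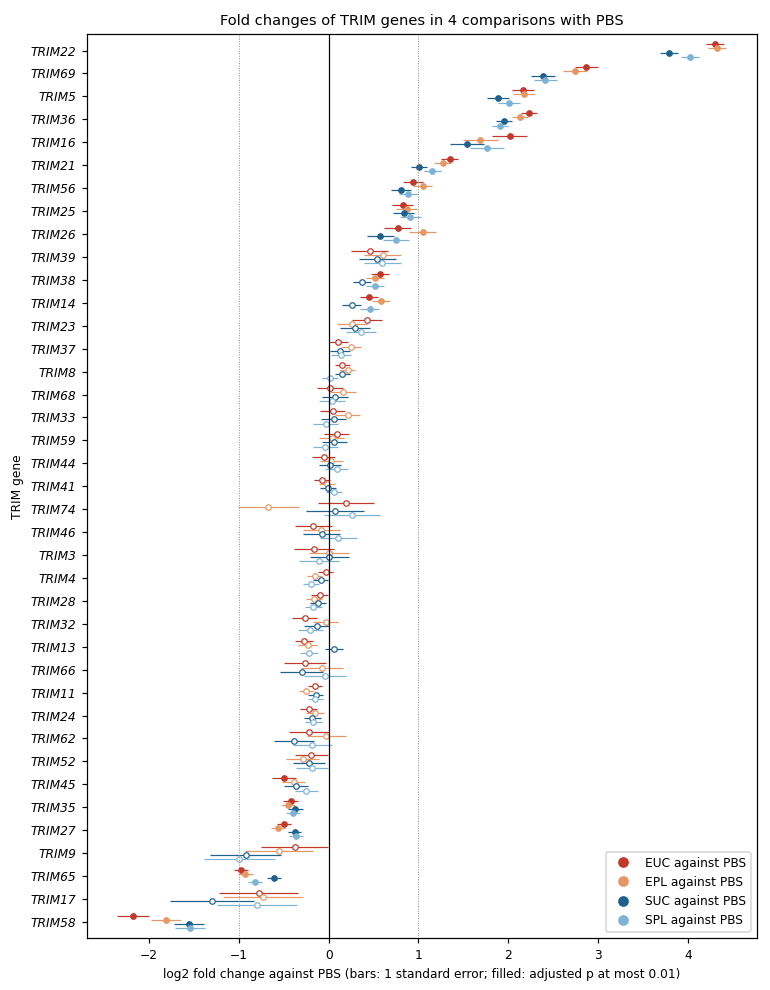
Log2 fold change against PBS (horizontal) of 39 TRIM genes (vertical, by mean fold change) in 4 comparisons, each from 3 libraries a group, with bars of 1 standard error. Filled points have an adjusted p of at most 0.01, and dotted lines mark a log2 fold change of 1 in either direction. TRIM22 lies between 3.79 and 4.33, TRIM58 between -2.18 and -1.54, and most members cluster around 0.

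Of the 23 members that passed in no comparison with PBS, 19 stayed within 0.5 on the log2 scale in all 4. TRIM39, TRIM74, TRIM9 and TRIM17 went beyond 0.5 and were all low, at 0.198 to 5.12 CPM. TRIM39 (log2 0.46 to 0.60, adjusted p 0.0266 to 0.0891) shares 24.7% of its 100-base stretches with TRIM39-RPP21, and TRIM74 shares 78.5% with TRIM73, so the counts of both are uncertain. TRIM28 had 755, 764 and 769 CPM in PBS cells and 624 to 794 CPM in stimulated cells, with log2 fold changes of -0.10 to -0.17 (adjusted p 0.171 to 0.404). Its call depended on the libraries, the scaling and the fit. It was highest of its group in EUC3, EPL1 and SUC3 (758, 794 and 763 CPM), and without these 3 libraries it was lower than PBS in EPL (log2 -0.28, adjusted p = 7.32e-05), SUC (-0.18, 0.00773) and SPL cells (-0.17, 0.00517). It also passed as lower in EPL without EPL1 alone (adjusted p = 0.00836), with column totals in EUC, EPL and SPL (0.00873, 0.0055 and 0.0071) and with only SPL and PBS in the fit (0.00542). TRIM33, a chromatin factor of the TGF-beta pathway, went the other way, with a log2 fold change in EPL of 0.21 (adjusted p = 0.256), or 0.35 without them (adjusted p = 0.000144). TRIM11 (log2 -0.31, adjusted p = 0.00027) and TRIM13 (-0.31, 0.0087) also passed as lower in EPL cells without them. With column totals TRIM11 passed as lower in all 4 comparisons (adjusted p 0.000364 to 0.00742), and it did so in EPL without EPL1 alone (0.00604). Column totals also made TRIM13 pass as lower in EUC and EPL (0.00193 and 0.00811) and TRIM4 in SPL (0.00763). TRIM44, which lacks a RING finger, stayed at 144 to 159 CPM in PBS and 121 to 177 CPM in stimulated cells, with log2 fold changes of -0.06 to 0.09.

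By class, the 18 members listed for a RING finger with a PRY-SPRY domain held 6 of the 9 that rose in all comparisons and all 4 that fell. The list is not all members with such a domain, since TRIM14 and TRIM16 (placed under no RING finger) and TRIM36, TRIM46 and TRIM9 (under the COS box) also end in a SPRY domain. The median log2 fold change of the 18 was between -0.01 and 0.07. None of the 4 members with a PHD finger and bromodomain (TRIM28, TRIM33, TRIM24 and TRIM66) and neither of the 2 with NHL repeats (TRIM32 and TRIM3) passed in the main fit. Under some alternatives TRIM28 passed as lower and TRIM33 as higher, as given above. Of 3 members with a COS box TRIM36 rose, of 9 with other C-terminal ends TRIM56 rose, and of 3 placed together for lacking a RING finger TRIM16 rose. A list of 9 members known for antiviral or innate signalling roles (TRIM5, TRIM14, TRIM21, TRIM22, TRIM25, TRIM26, TRIM38, TRIM56 and TRIM65) held 6 that rose and 1 that fell in all 4 comparisons, and its median log2 fold change was 0.83, 1.05, 0.81 and 0.89 in EUC, EPL, SUC and SPL. Among the 30 other members 3 rose (TRIM69, TRIM36 and TRIM16) and 3 fell (TRIM58, TRIM27 and TRIM35). The list was drawn up with earlier results of these data known, and it is not complete. TRIM69, TRIM27 and TRIM35 are outside it, though described above as acting on a virus, interferon signalling or IRF7. The counts therefore describe this list only, not innate roles in the family.

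The members were also set beside relatives and partners, in lists drawn up with earlier results of these data known. The counts therefore describe these lists only. Of the relatives under other symbols, 5 of 7 were tested. PML, the organiser of nuclear bodies, TRIM16L and MEFV, the pyrin inflammasome sensor, rose in all 4 comparisons, as 10.9% of all tested genes did, with mean log2 fold changes of 1.65, 2.44 and 0.93, and MID1 and MID2 passed in none. The counts that follow stand beside 16.5%, 16%, 12.4% and 13.3% of all genes higher and 14%, 13.2%, 9.15% and 10.6% lower in EUC, EPL, SUC and SPL. Of 13 genes of the ubiquitin-conjugating E2 family, 5 rose in EUC, EPL and SPL and 6 in SUC, and 0 fell. UBE2L6, the E2 of the ubiquitin-like ISG15, rose most, with a mean log2 fold change of 1.86. Among 15 signalling partners and targets of TRIM proteins, 9 rose in EUC, EPL and SPL, 8 rose in SUC, and 2 fell in each. MDA5 (IFIH1), the target of TRIM65, had a mean log2 fold change of 3.37, from 13.9 CPM in PBS cells. RIG-I (DDX58), the target of TRIM25, had 3.31, but from a mean of only 0.587 CPM in PBS cells. Its means in the stimulated groups were 4.75 to 7.67 CPM. The size of its fold is therefore uncertain. STING1, a target of TRIM56, fell by 1.74. Of 8 corepressor partners of TRIM28, 0 rose and 1 to 2 fell, with CHD3 at a mean of -0.51 and CBX3 at -0.43.

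The promoters of the members were searched for a few short motifs in windows from 250 bases before to 50 bases after each start in RefSeq (GRCh38.p14), which held 39 windows of 29 members. The motifs were chosen after the fold changes were known, so the matches are a description without a test. The interferon-stimulated response element (ISRE), which IRF proteins bind, was searched on both strands as GAAA, any 2 bases and GAAA again. It occurred in 3.57% of all 35114 windows and in 7 of the 39 member windows. These belonged to 7 members (TRIM5, TRIM14, TRIM16, TRIM21, TRIM26, TRIM44 and TRIM69). The counts that follow are of members, which can have several windows, so they are not on the scale of the share of windows. Of the members that rose in all 4 comparisons, 8 had a window and 5 had the motif, of those that fell 2 had a window and 0 had the motif, and of those that passed in no comparison 17 had a window and TRIM44 had the motif. The sequences around these matches are shown because they set members that rose beside TRIM44, which matches the same motif and did not pass. Capitals mark the match, written 5′ to 3′ on the strand of the gene, and where capitals read TTTC first the match is on the other strand.
TRIM5, chr11:5685075-5685126, minus strand: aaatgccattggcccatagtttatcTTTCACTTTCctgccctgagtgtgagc
TRIM69, chr15:44736441-44736500, plus strand: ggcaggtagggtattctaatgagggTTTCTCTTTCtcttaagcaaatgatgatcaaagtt
TRIM16, chr17:15682997-15683056, minus strand: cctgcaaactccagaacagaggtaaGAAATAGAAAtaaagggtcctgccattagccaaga
TRIM21, chr11:4393666-4393689, minus strand: agcgGAAACTGAAAGTGAAAtagg
TRIM26, chr6:30213560-30213625, minus strand: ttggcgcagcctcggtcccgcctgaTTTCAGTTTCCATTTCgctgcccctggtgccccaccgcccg
TRIM14, chr9:98119223-98119273, minus strand: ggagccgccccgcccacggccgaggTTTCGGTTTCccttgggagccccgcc
TRIM44, chr11:35662715-35662774, plus strand: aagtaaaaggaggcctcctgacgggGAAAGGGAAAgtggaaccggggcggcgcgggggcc

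In TRIM21 and TRIM26 a pair of overlapping matches makes a longer run. The match ended 18 bases before the start in TRIM5, 17 in TRIM14, 26 in TRIM44, 53 in TRIM69, 71 in TRIM16 and 179 in TRIM26, and in TRIM21 it began 18 bases after the start. Each start is that of the RefSeq window. In TRIM5 and TRIM69 it lies inside the gene span given above, away from the end where that span begins. Other motifs were found in fewer members. The NF-kappa B consensus was in 11.3% of all windows and in 2 of the 39 member windows (TRIM14 and TRIM46). The antioxidant response element (TGACNNNGC) was in 13.3% of all windows and in 4 member windows (TRIM17, TRIM39 and TRIM62). TRIM22, TRIM28, TRIM11, TRIM27, TRIM24, TRIM8, TRIM35, TRIM4, TRIM13 and TRIM45 had no entry.

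The responses to *E. coli* and *S. aureus* BEVs were compared as the mean of EUC and EPL against the mean of SUC and SPL. TRIM22 and TRIM69 passed, both higher with *E. coli* BEVs, where 2.87% of all tested genes were higher, and 0 members were lower, where 1% of all genes were (edgeR, 11 members with an unadjusted p under 0.05, with DESeq2 3 higher members, TRIM36 being the third, and 1 lower, TRIM65). None of these differences reached the fold of a DEG, where 0.663% of all genes were higher and 0.0233% lower DEGs. The difference was 0.41 ± 0.06 on the log2 scale (SE) for TRIM22, or 1.33-fold (adjusted p = 0.000282), and 0.40 ± 0.08 for TRIM69, or 1.32-fold (adjusted p = 0.00341). In both genes the 6 *E. coli* libraries were all above the 6 *S. aureus* libraries. The call of TRIM69 was lost when EUC2, EPL2, SUC2, SPL1 or SPL3 was left out (adjusted p 0.0113 to 0.0176), with log2 differences of 0.38 to 0.40. TRIM36 (0.25, adjusted p = 0.012, or 0.00125 with DESeq2), TRIM65 (-0.24, 0.0151), TRIM21 (0.23, 0.0407) and TRIM58 (-0.45, 0.0408) came next. Without EUC3, EPL1 and SUC3 together TRIM65 (-0.30, adjusted p = 9.54e-05) and TRIM58 (-0.42, 0.00499) passed as lower and TRIM33 (0.23, 0.00369) as higher. TRIM25 differed by -0.03, with a 95% interval of -0.20 to 0.15.

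**Figure D5:**
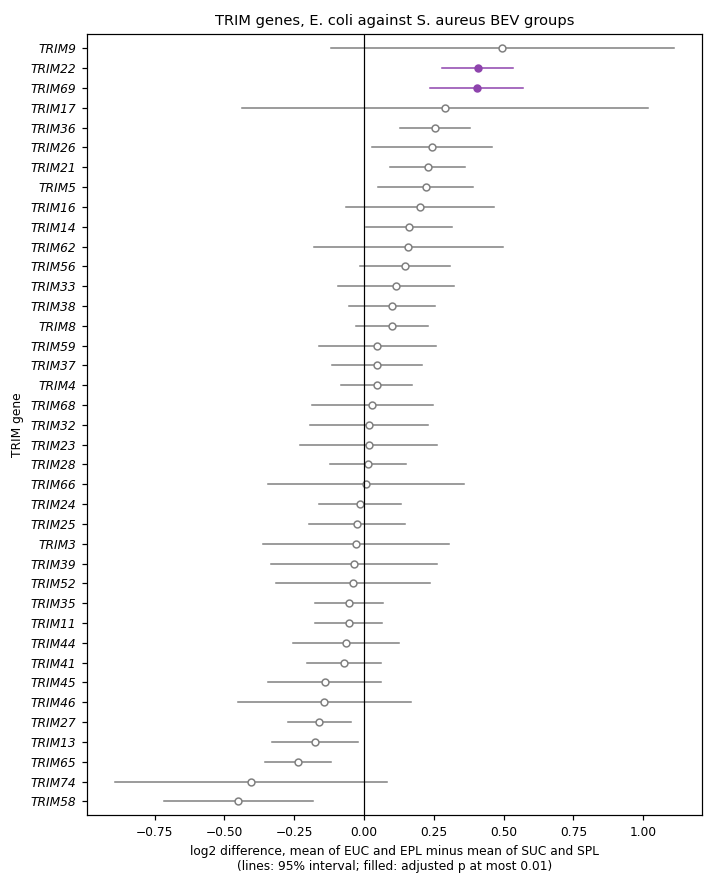
Log2 difference between the mean of EUC and EPL and the mean of SUC and SPL (horizontal) for 39 TRIM genes (vertical), with 95% intervals from 3 libraries a group. Filled points, TRIM22 at 0.41 and TRIM69 at 0.40, have an adjusted p of at most 0.01, and the intervals of the low genes TRIM9, TRIM17 and TRIM74 are the widest.

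Between isolation methods no member passed. For EPL against EUC 0 members passed (0% of all genes), with a smallest adjusted p of 0.947, and TRIM74 had an unadjusted p under 0.05. For SPL against SUC 0 members passed (0.00581% of all genes), with a smallest adjusted p of 0.814 and an unadjusted p under 0.05 for 3 members, TRIM22, TRIM65 and TRIM13. The difference of methods between species likewise gave 0 members (0% of all genes, adjusted p = 1), with 4 at an unadjusted p under 0.05 (TRIM65, TRIM13, TRIM16 and TRIM74). These counts come from edgeR, and DESeq2 also gave 0 in each. The data limit the size of a difference rather than show that the methods act alike. For the 30 members with a mean of at least 10 CPM, EPL and EUC differed by -0.33 to 0.37 on the log2 scale, with 95% intervals reaching from -0.70 to 0.76, and SPL and SUC by -0.28 to 0.26, with intervals from -0.50 to 0.76. TRIM22 was 0.23 higher in SPL than SUC and 0.02 higher in EPL than EUC.

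At the edge of the rule, TRIM17 (mean 1.00 CPM from library totals) and TRIM9 (1.16 CPM) were just inside and TRIM67 (0.766 CPM) and TRIM31 (0.756 CPM) just outside. TRIM17 was below 1 CPM in each stimulated group and was kept through its level in PBS cells. Reads on TRIM31, an activator of MAVS, numbered 0, 0 and 1 in the PBS libraries and 7 to 27 in the stimulated libraries. Reads on TRIM67 numbered 1, 3 and 9 in PBS and 9 to 18 in stimulated libraries. Both were among the 17198 genes tested. TRIM31 was a higher DEG in all 4 comparisons (adjusted p 2.47e-05 to 0.000449), and no fold is given against so few PBS reads. TRIM67 was a higher DEG in EPL (adjusted p = 0.00323) and SUC (0.0091) and did not pass in EUC (0.0113) and SPL (0.0328). Without the minimum the higher members would number 12, 13, 11 and 12 and the higher DEGs 7, 10, 8 and 7 in EUC, EPL, SUC and SPL.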

How the data were processed

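The 15 libraries were grouped by their titles and treatments in the labels. The authors extracted RNA with Trizol, prepared libraries with an NEB kit, and per the labels used FastQC 0.11.5, HISAT2 2.1.0 (hg38), StringTie 1.3.3b, DESeq 1.28.0 and featureCounts, where the methods name FastQC, HISAT2 and DESeq2. The deposited values are whole-number read counts per gene, not normalised. The strand setting and the annotation release were not stated, so overlapping and antisense genes are uncertain. Here edgeR 4.0.16 (R 4.3.3) was used with filterByExpr (17198 genes kept), TMM factors, and glmQLFit and glmQLFTest on 5 group means over all libraries, without a replicate block, with Benjamini-Hochberg adjustment over all tested genes. CPM are TMM-normalised unless stated. SEs were derived from the F statistic. Gene positions and exon lengths came from GENCODE release 44. Steps were tested on simulated data. Alternatives were DESeq2 1.42.0, other scalings, no filter, fewer groups, a replicate block, and left-out libraries.

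The members and gene lists were chosen with earlier results of these data known. Named genes were members that were DEGs in any comparison, members past the test between species, the 5 highest by CPM and the 2 genes on each side of the CPM minimum. Others were named after their values were seen.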

Additional observations from a re-analysis of the deposited data

Results flagged for a closer look

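TRIM22 and TRIM69 differed between the responses to *E. coli* and *S. aureus* BEVs by the test of the difference itself (edgeR, mean of EUC and EPL against mean of SUC and SPL). TRIM22 was higher with *E. coli* BEVs by 0.407 on the log2 scale (adjusted p = 0.000282). TRIM69 was higher by 0.404 (adjusted p = 0.00341), a call that was lost when EUC2, EPL2, SUC2, SPL1 or SPL3 was left out (adjusted p 0.0113 to 0.0176). In both genes all 6 *E. coli* libraries were above all 6 *S. aureus* libraries, and species and dose changed together.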

How the results depend on the processing

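No called fold change of a member changed sign under any alternative. With column totals as library sizes, which moved the median of all genes by -0.114 to -0.162, lower members numbered 8 in EUC, 8 in EPL and 7 in SPL, lower DEGs 2 in EUC and 2 in EPL, and 1 member was lower with *E. coli* than with *S. aureus* BEVs. Without a filter on low counts 2 members were lower in SUC, and 1 was lower between species. DESeq2 gave 3 higher members (TRIM36 added) and 1 lower member between species. Higher DEGs in EPL were 6 instead of 8 without EPL2 and with column totals. Leaving out EUC3, EPL1 and SUC3 together, chosen after the data were seen, gave 2 lower DEGs in EUC, 7 lower members and 2 lower DEGs in EPL, and 2 lower members between species. With single libraries left out, lower DEGs were 1 to 2 in EUC and 1 to 2 in EPL, and members between species were 1 to 3 higher and 0 to 1 lower. The cause was not tested.

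The replicate numbers did not pair the libraries across all groups. Deviations of libraries with the same number had a mean correlation of 0.01 over 30 pairs (-0.452 to 0.525, 7 over 0.1). Unlike numbers gave -0.004 over 60 pairs (-0.484 to 0.488, 12 over 0.1). EUC1 and SUC1 correlated at 0.393 and EUC3 and SUC3 at 0.525. EUC1 and EPL1, however, gave -0.452, and EUC3 and EPL1 gave 0.488. The mean can hide a pairing within some of the groups, which is not excluded. With the replicate block the counts were as before (11 members higher and 5 lower in EUC), and all 195 calls of members kept their side of the threshold. In members under about 10 CPM the 95% intervals are wide.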
